A study of Mus musculus with 6 samples.

Results

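Met and 9 other receptor tyrosine kinase genes, namely Kit, Erbb3, Axl, Tyro3, Pdgfra, Pdgfrb, Igf1r, Insr and Fgfr1, were followed in melanoma cells sorted by pigment. They were found by symbol in a table of 22740 genes, and all 10 were present, each in a single row. The cells were B16-F3, a line of mouse melanoma grown in serum-containing medium, with no drug or genetic change named. Flow cytometry split the culture by the light scatter of melanin into a strongly pigmented population, labelled HPC, and a weakly pigmented one, labelled LPC. From each population 3 libraries were made, and reads were taken at the 3' ends of polyadenylated transcripts. All values come from 1 cell line, and the labels do not say whether replicates were separate cultures or sorts.

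Receptor tyrosine kinases are membrane proteins that bind a growth factor outside the cell and phosphorylate tyrosines inside it, where adaptor proteins dock and switch on the RAS-MAPK and PI3K-AKT cascades. In the pigment lineage, Kit and its ligand support melanoblast migration and survival, and Met, the receptor of hepatocyte growth factor, promotes growth and motility of melanocytes and melanoma cells. Axl and the platelet-derived growth factor receptors are known from melanoma cells that have lost lineage traits and tolerate kinase inhibitors.

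The promoters of Met and Pdgfra are shown because the data bear on both genes in opposite directions. Promoter windows of 300 bases, 250 before and 50 after the annotated start, came from RefSeq on GRCm38.p6 and matched 6 of the 10 genes, with 7 windows because Kit has 2 starts. Capitals mark matches on either strand to CACGTG or CATGTG, E-boxes of the kind bound by MITF, the master transcription factor of melanocytes, and to TGANTCA, the AP-1 motif. No motif overlaps another here. The Met window is chr6:17463707-17464006 and the Pdgfra window chr5:75152001-75152300, both on the plus strand.
Met: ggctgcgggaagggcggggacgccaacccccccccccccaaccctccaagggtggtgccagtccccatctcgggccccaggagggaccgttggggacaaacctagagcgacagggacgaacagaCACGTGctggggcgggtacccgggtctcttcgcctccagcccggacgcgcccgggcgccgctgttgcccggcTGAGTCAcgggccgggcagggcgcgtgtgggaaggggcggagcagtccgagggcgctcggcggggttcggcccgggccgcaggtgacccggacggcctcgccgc
Pdgfra: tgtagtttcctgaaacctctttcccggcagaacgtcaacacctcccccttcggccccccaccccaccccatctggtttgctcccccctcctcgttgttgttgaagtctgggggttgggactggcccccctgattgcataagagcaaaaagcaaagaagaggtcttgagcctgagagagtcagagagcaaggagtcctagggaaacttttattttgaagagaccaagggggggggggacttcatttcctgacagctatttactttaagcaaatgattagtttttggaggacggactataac
The Met window holds 1 CACGTG, 126 bases before the RefSeq start, and 1 TGANTCA, 54 bases before it. By GENCODE the Met gene begins at 17463800, inside this window and ahead of both motifs. Both motifs are thus upstream by the RefSeq start only, and inside the gene by GENCODE. The Pdgfra window and those of Kit, Tyro3, Axl and Igf1r hold none of the 3 motifs. Of 32851 windows of that length, 7.15% hold CACGTG, 14.2% CATGTG and 7.81% TGANTCA. A match describes letters in the window and was not tested as a binding site.

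Library totals ran from 14695822 to 22186743 counts, and mitochondrial genes took 2.07% to 3.21% of them. Markers of the melanocyte lineage (Pmel, Mlana, Dct, Tyrp1, Mitf, Sox10) summed to between 32533 and 35952 CPM in HPC and between 31930 and 34398 CPM in LPC, where CPM is the count scaled to a common library size with TMM factors. Keratinocyte markers were at 0 in every library.

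Of the 10 genes, Met stood higher in HPC than in LPC and the other 9 had negative fitted differences, the largest in Pdgfrb, Pdgfra and Fgfr1. All 10 entered an edgeR quasi-likelihood fit of 11921 genes, in which a Benjamini-Hochberg adjusted p under 0.05 made a call. Without a term for replicate number, edgeR called 0 of the 10, against 0.0419% of all genes, and 4 of the 10 had an unadjusted p under 0.05, against 9.37%. DESeq2 called Met as higher and Pdgfrb as lower, against 1.02% and 0.856% of all genes (1.88% in all), and limma-voom called 0, against 0.0419%. A block for replicate number raised this to 4 edgeR calls, against 2.52% of all genes. Met was called as higher in HPC (1.43% of all genes were) and Pdgfrb, Pdgfra and Fgfr1 as lower (1.1%). DESeq2 and limma-voom with the block called the same 4 in the same directions, against 4.19% (2.64% higher, 1.55% lower) and 2.5% (1.39% higher, 1.11% lower) of all genes. The CPM of HPC and LPC libraries did not overlap for Met, with HPC above, and for Pdgfrb, Pdgfra and Kit, with HPC below, against 7.16% and 7.18% of all genes (14.3% in all). Differences within the numbered pairs had 1 sign throughout for Met, Pdgfrb, Pdgfra, Fgfr1, Kit and Erbb3, against 40.9% of all genes. The median log2 fold change of the 10 was -0.27 without the block, and that of all genes was -0.0091.

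**Figure D1:**
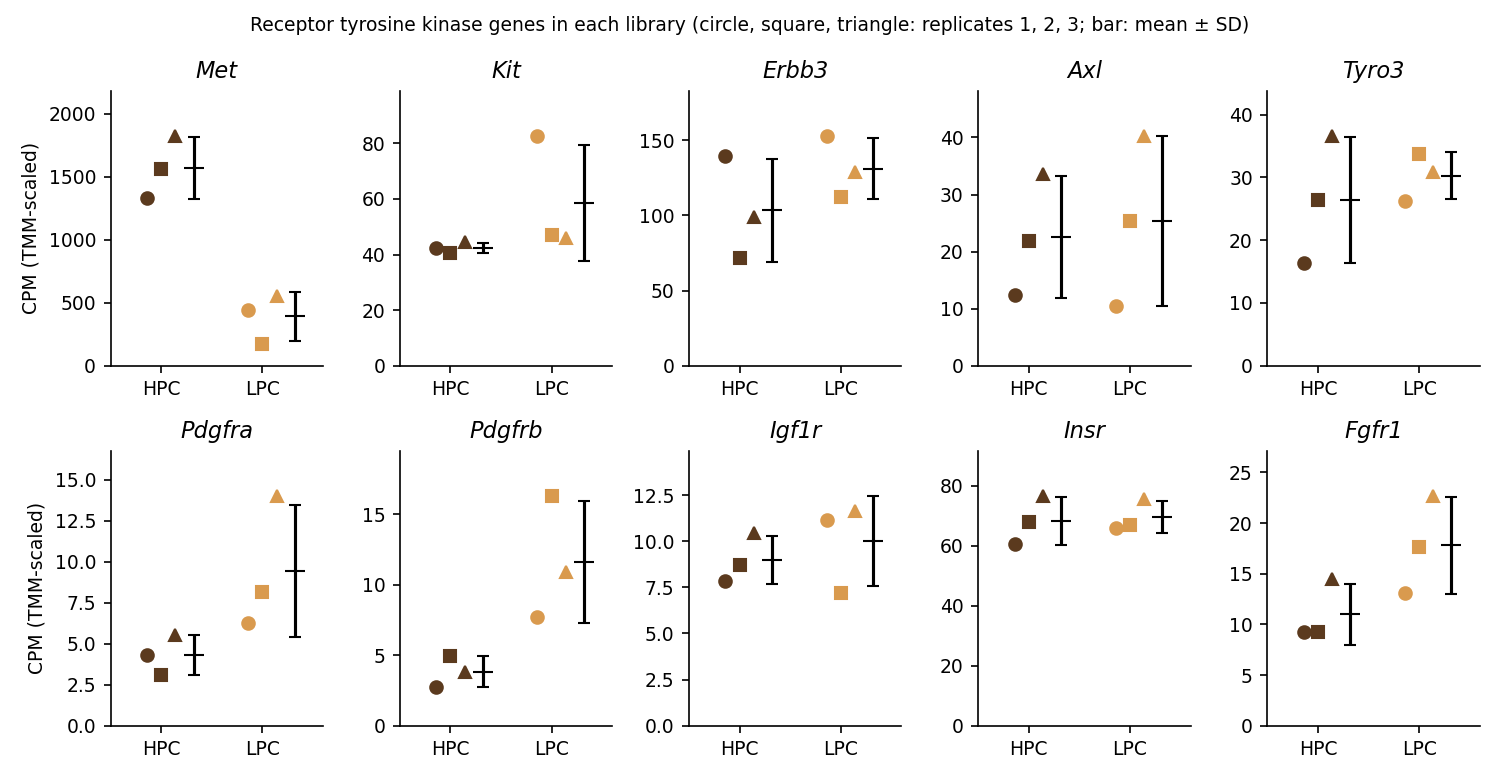
Level of each gene in CPM on a linear axis from 0, with 1 point per library (replicates 1, 2 and 3 as circle, square and triangle) and a bar for the mean ± SD of 3 libraries of HPC (dark) and LPC (light). HPC points lie above all LPC points for Met, from 1334 CPM against at most 556, and below them for Pdgfrb, Pdgfra and Kit.

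Met (ENSMUSG00000009376, chromosome 6 from 17463800 to 17573980, plus strand, GRCm38) encodes the hepatocyte growth factor receptor. In the order of replicates 1, 2 and 3, used for all library values here, its level was 1334, 1559 and 1822 CPM in the HPC libraries, against 444, 173 and 556 CPM in the LPC libraries. Every HPC library was above every LPC library, and LPC replicate 2 was far below the other LPC libraries. The difference between means, 1181 CPM, was the second largest rise among the 11921 genes, after Gpnmb, a melanosomal glycoprotein gene. Among the 2564 genes with a mean of at least 100 CPM, the fold of Met ranked 3, after the pigment genes Tyr and Trpm1.

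Without the block Met was 4.02-fold higher in HPC and did not pass (edgeR log2 fold change 2.01, SE 0.38, 95% interval 1.15 to 2.87, adjusted p = 0.16). With the block it rose 4.42-fold (edgeR log2 fold change 2.15, SE 0.29, adjusted p = 0.019). The pairs of equally numbered libraries differed by 3.00-, 9.02- and 3.27-fold, so the pair numbered 2 stood apart, through its low LPC library. Counts of 3271 to 35836 reads give a counting error of at most 1.75%, while the spread between libraries was 15.5% of the mean in HPC and 50.4% in LPC. Across the other settings tried with edgeR, DESeq2 or limma-voom, apart from fits that left out a whole pair, Met had an adjusted p from 1.9e-06 with DESeq2 to 0.40 without HPC replicate 3. The unblocked edgeR fit called Met with no filter on low counts (adjusted p = 0.044) and without LPC replicate 3 (0.039). The blocked call ended without the pair numbered 2 (edgeR log2 fold change 1.65, adjusted p = 0.080), a fit that left 1 residual degree of freedom. Without the pair numbered 3 the adjusted p was 0.0015 (edgeR log2 fold change 2.38), and without that numbered 1 it was 5.1e-125 (2.45). In the fit without the pair numbered 1, edgeR called 2947 genes in all. It took the spread almost wholly from the other genes (12018 total degrees of freedom), and its p-values for all genes rest on that. In bulk RNA a smaller share of Met-expressing cells and less Met RNA per cell cannot be told apart. Mitf, which encodes a factor that binds such E-boxes, had a log2 fold change of 0.05 (95% interval -0.28 to 0.38, edgeR without the block, adjusted p = 0.96). This is a level of RNA, and the part of MITF in the Met difference was not tested.

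**Figure D2:**
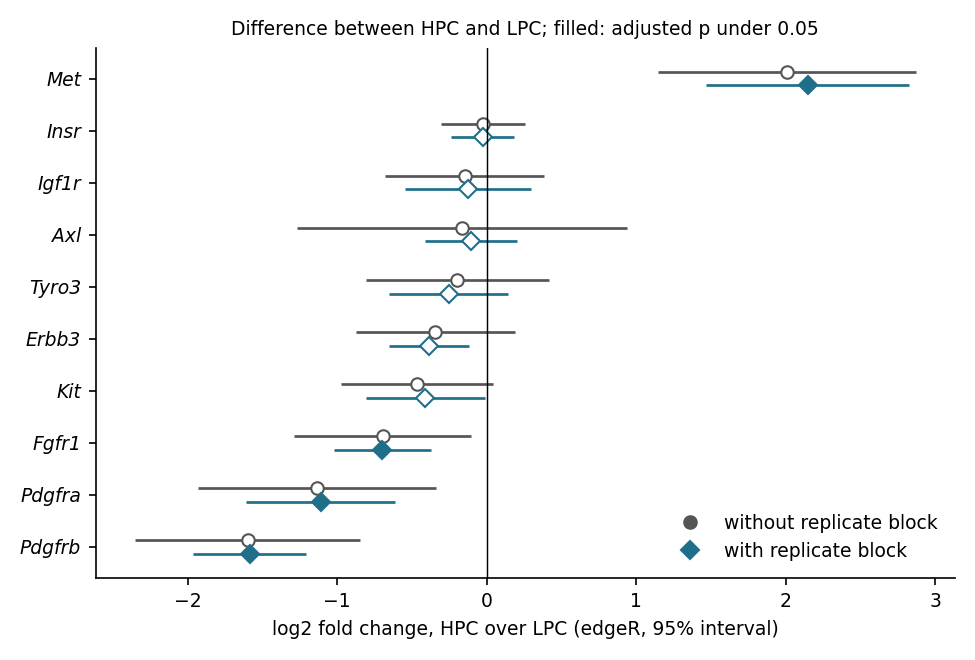
Log2 fold change of HPC over LPC for each gene with its 95% interval, from edgeR without the block (circles) and with the replicate number as a block (diamonds), filled where the adjusted p is under 0.05. Met lies near 2.0 on the right in both fits, and with the block Fgfr1, Pdgfra and Pdgfrb are filled on the left at -0.70, -1.11 and -1.58.

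Pdgfrb (ENSMUSG00000024620, chromosome 18 from 61045150 to 61085061, plus strand) encodes the beta receptor for platelet-derived growth factor. Its level was 2.75, 4.92 and 3.81 CPM in the HPC libraries, against 7.69, 16.3 and 10.9 CPM in the LPC libraries. The highest HPC library lay below the lowest LPC library, and LPC replicate 2, lowest for Met, was highest for Pdgfrb. The log2 differences within the pairs numbered 1, 2 and 3 were -1.45, -1.70 and -1.49, closer together than the levels themselves. Pdgfrb fell 3.00-fold in HPC with the block (edgeR log2 fold change -1.58, SE 0.16, adjusted p = 0.0086), and without it the difference did not pass (-1.60, SE 0.33, adjusted p = 0.18). Library counts were only 49 to 308 reads, and counting error reaches 14.3% in the lowest. Other settings, apart from fits that left out a whole pair, put its adjusted p between 2.4e-07 with DESeq2 and the block and 0.75 without LPC replicate 2. The blocked call ended without the pair numbered 2 (edgeR log2 fold change -1.50, adjusted p = 0.16) and held without that numbered 1 or that numbered 3 (-1.62 in both, adjusted p = 5.1e-16 and 0.0064).

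Pdgfra (ENSMUSG00000029231, chromosome 5 from 75152292 to 75198215, plus strand) encodes the alpha receptor of the same ligand family. Its level was 4.32, 3.07 and 5.54 CPM in the HPC libraries, against 6.27, 8.13 and 13.99 CPM in the LPC libraries. The groups did not overlap, though HPC replicate 3 and LPC replicate 1 lay close together. With the block Pdgfra fell 2.16-fold in HPC (edgeR log2 fold change -1.11, SE 0.21, adjusted p = 0.045), and without it the difference did not pass (-1.14, SE 0.35, adjusted p = 0.34). Other settings, apart from fits that left out a whole pair, put the adjusted p of Pdgfra between 0.0052 with DESeq2 and the block and 0.87 without LPC replicate 2. Without the pair numbered 2 or that numbered 3 the blocked call ended (edgeR log2 fold change -0.96 and -0.98, adjusted p = 0.38 and 0.17), and without that numbered 1 it held (-1.35, adjusted p = 3.8e-10). Pdgfra overlaps Mir7025 on its own strand and Gm42802 and Gm42803 on the other, and its count is uncertain to the extent that their reads were counted with it.

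Both platelet-derived growth factor receptors are also markers of fibroblasts and pericytes, so those cells' markers are given beside them. The 6 fibroblast markers (Col1a1, Col1a2, Col3a1, Dcn, Lum, Thy1) all had reads and summed to 13.7 to 23.9 CPM in HPC and 8.10 to 28.0 CPM in LPC, overlapping ranges. Of 5 pericyte and smooth muscle markers, Rgs5 and Acta2 were at 0 in all 6 libraries, and the sum was 12.5 to 21.2 CPM in HPC and 3.17 to 10.0 CPM in LPC. That sum lay higher in HPC, opposite to the receptors, and most of it was Notch3. Notch3 itself rose 3.42-fold in HPC with the block (edgeR log2 fold change 1.77, SE 0.35, adjusted p = 0.049, against 0.23 without the block). Of the 2 tested markers of that list, DESeq2 called 1 as higher with and without the block, against 2.64% and 1.02% of all genes. Limma-voom called 0 in both, against 2.5% and 0.0419%. The blocked edgeR fit called 1 without the pair numbered 1 or 3, and 0 without that numbered 2, where it called 0 genes in all. Of 4 endothelial markers Cdh5 and Cldn5 were at 0, and the sum was 9.86 to 10.7 CPM in HPC and 1.42 to 7.77 CPM in LPC. Of 5 immune markers in the table Ptprc, Itgam and Cd3e were at 0, and the sum was 7.40 to 13.02 and 2.77 to 7.50 CPM. The part of such cells in the receptor differences was not tested.

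Fgfr1 (ENSMUSG00000031565, chromosome 8 from 25513654 to 25575718, plus strand) encodes a fibroblast growth factor receptor. Its level was 9.21, 9.29 and 14.4 CPM in the HPC libraries, against 13.1, 17.6 and 22.6 CPM in the LPC libraries. The groups overlapped at HPC replicate 3 and LPC replicate 1, while each HPC library lay below the LPC library of its own number. Fgfr1 fell 1.62-fold in HPC with the block (edgeR log2 fold change -0.70, SE 0.14, adjusted p = 0.049), just inside the threshold, and did not pass without it (-0.70, SE 0.26, adjusted p = 0.47). Other settings, apart from fits that left out a whole pair, put the adjusted p of Fgfr1 between 0.021 with DESeq2 and the block and 0.9996 without LPC replicate 2. The blocked call ended without the pair numbered 2 or that numbered 3 (edgeR log2 fold change -0.58 and -0.72, adjusted p = 0.45 and 0.16), and held without that numbered 1 (-0.77, adjusted p = 2.6e-06). Fgfr1 has 8 different annotated 3' ends and overlaps Gm16159 on the other strand. Such ends number 6 for Met, 7 for Pdgfra and 1 to 3 for each other member. Insr overlaps Vmn2r-ps88 and Gm16180 on the other strand.

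Kit and Erbb3, receptors that mark the melanocyte and neural crest lineage, had lower means in HPC and passed in no fit with all 6 libraries. Kit (ENSMUSG00000005672, chromosome 5 from 75574916 to 75656722, plus strand) encodes the stem cell factor receptor. Its level was 42.2, 40.5 and 44.4 CPM in the HPC libraries, against 82.5, 47.2 and 45.8 CPM in the LPC libraries. HPC libraries differed little among themselves, and only LPC replicate 1 lay well above them. The log2 fold change was -0.46 (95% interval -0.97 to 0.04, edgeR adjusted p = 0.59), -0.41 with the block (adjusted p = 0.25) and -0.13 without LPC replicate 1 (adjusted p = 0.69).

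Erbb3 (ENSMUSG00000018166, chromosome 10 from 128567523 to 128589652, minus strand) encodes a neuregulin receptor with little kinase activity of its own, which signals through partners such as Erbb2. Its level was 139, 71.6 and 98.8 CPM in the HPC libraries, against 153, 112 and 129 CPM in the LPC libraries. HPC replicate 1 lay inside the LPC range, and within both groups the library numbered 1 was highest and that numbered 2 lowest. HPC replicate 1 was also the library with the highest mitochondrial share, 3.21%, and the part of that in the Erbb3 level was not tested. The log2 fold change was -0.35 (95% interval -0.88 to 0.19, edgeR adjusted p = 0.72) and -0.39 with the block (95% interval -0.65 to -0.12, adjusted p = 0.14). Once the pair numbered 1 was left out, the blocked fit called Erbb3 as lower in HPC (edgeR log2 fold change -0.50, adjusted p = 2.4e-06), with 1 residual degree of freedom. That fit called 2947 genes in all and took the spread almost wholly from the other genes (12018 total degrees of freedom). Erbb3 holds Mir6917 on its own strand.

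Axl and Tyro3 belong with Mertk to the TAM family, whose ligands Gas6 and Pros1 bridge cells to phosphatidylserine. Axl (ENSMUSG00000002602, chromosome 7 from 25757273 to 25788705, minus strand) was at 12.3, 21.8 and 33.7 CPM in the HPC libraries, against 10.5, 25.4 and 40.2 CPM in the LPC libraries. Its level followed the replicate number and not the population, since the libraries numbered 1 were lowest and those numbered 3 highest in both groups. The SE of the Axl log2 fold change fell from 0.48 without the block to 0.13 with it, and the estimate with the block was -0.10 (95% interval -0.41 to 0.20, edgeR adjusted p = 0.73).

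Tyro3 (ENSMUSG00000027298, chromosome 2 from 119797733 to 119818104, plus strand) was at 16.3, 26.3 and 36.6 CPM in the HPC libraries, against 26.2, 33.7 and 30.9 CPM in the LPC libraries. The HPC libraries spanned the whole LPC range. The log2 fold change was -0.20 (95% interval -0.81 to 0.41, edgeR adjusted p = 0.88), and the pair differences were -0.68, -0.35 and 0.24. Mertk, the other TAM receptor, was at 9.38 to 11.4 CPM in HPC and 9.78 to 12.99 CPM in LPC.

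Igf1r and Insr, receptors for insulin-like growth factors and insulin, gave the smallest differences together with Axl. Igf1r (ENSMUSG00000005533, chromosome 7 from 67952827 to 68233668, plus strand) was at 7.86, 8.70 and 10.4 CPM in the HPC libraries, against 11.1, 7.18 and 11.6 CPM in the LPC libraries. The groups overlapped, and the log2 fold change was -0.15 (95% interval -0.68 to 0.39, edgeR adjusted p = 0.90). Insr (ENSMUSG00000005534, chromosome 8 from 3122061 to 3279617, minus strand) was at 60.6, 68.0 and 76.5 CPM in the HPC libraries, against 66.0, 67.0 and 75.7 CPM in the LPC libraries. The libraries of both populations were interleaved. The log2 fold change of Insr was -0.025 (95% interval -0.31 to 0.26, edgeR adjusted p = 0.98), the narrowest interval of the 10 genes.

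Within a library, the share of Met among the reads of the 10 genes does not depend on scaling between libraries. Met took 81.9%, 86.0% and 84.9% of these reads in the HPC libraries, but 54.2%, 34.1% and 59.4% in the LPC libraries. Exact 95% Clopper-Pearson intervals, which cover counting error only, ran from 81.5% to 82.3% in the lowest HPC library and from 58.6% to 60.2% in the highest LPC library. The share was 84.3% ± 2.11 in HPC and 49.2% ± 13.4 in LPC (SD, n = 3 each, two-sided exact permutation test p = 0.1, the smallest that 3 against 3 allows). Among the reads of all 58 receptor tyrosine kinase genes, Met took 49.2% ± 2.84 in HPC and 17.4% ± 7.75 in LPC (exact permutation p = 0.1).

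The summed level of the 10 genes was 1863 ± 262 CPM in the HPC libraries, against 755 ± 222 CPM in the LPC libraries (SD, n = 3 each, exact permutation p = 0.1). Without Met, a sum chosen after its values were seen, it was 295, 254 and 324 CPM in the HPC libraries, against 376, 334 and 381 CPM in the LPC libraries. The 9 other receptors together thus stood lower in every HPC library than in any LPC library, and the higher total in HPC came from Met alone. Any such separation gives an exact permutation p of 0.1, so that p adds nothing to it. Among the 9, Erbb3 and Kit had the largest differences between means (-27.9 and -16.1 CPM), and no fit with all 6 libraries called them.

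**Figure D3:**
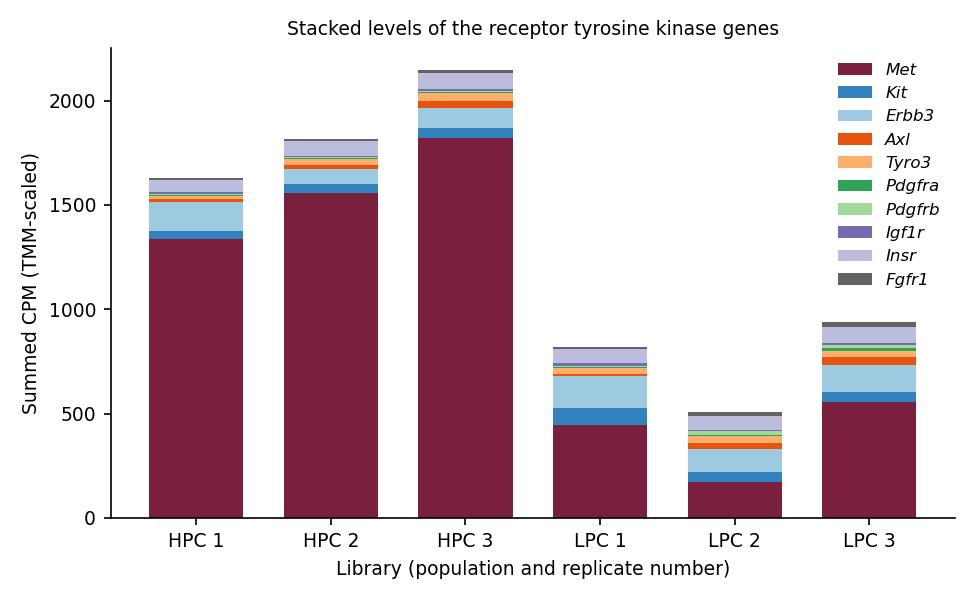
Stacked CPM of the 10 genes in each library, on a linear axis from 0. Met, the lowest block of each bar, makes up most of the HPC bars and between 34.1% and 59.4% of the reads in LPC.

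The other 48 receptor tyrosine kinase genes were taken as a whole from the known family, and 22 of them were tested. Of these, the unblocked edgeR fit called 0, against 0.0419% of all genes, and 6 had an unadjusted p under 0.05, against 9.37%. DESeq2 called Ephb2, against 1.88% of all genes, and limma-voom called 0, against 0.0419%. The median log2 fold change of the 22 was -0.23. With the block edgeR called 1 higher and 3 lower, against 1.43% and 1.1% of all genes. Limma-voom with the block called the same 4, against 2.5% of all genes. DESeq2 with the block called 6, against 4.19% of all genes. These were those 4 and, as lower in HPC, Epha3 (DESeq2 log2 fold change -0.52, adjusted p = 0.013) and Aatk (-0.50, adjusted p = 0.019). Epha4, an ephrin receptor gene, was the one that rose, from 6.14, 3.17 and 8.77 CPM in the LPC libraries to 12.7, 8.34 and 14.9 CPM in the HPC libraries (edgeR with the block, 2.07-fold, adjusted p = 0.029). Its groups overlapped slightly, at HPC replicate 2 and LPC replicate 3.

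Ephb2, another ephrin receptor gene, fell 2.58-fold with the block, from 10.2 ± 1.84 CPM in LPC to 3.97 ± 0.52 CPM in HPC (SD, n = 3 each, edgeR adjusted p = 0.013). Ptk7, a pseudokinase of Wnt signalling, fell 3.21-fold, at 1.52 ± 0.83 CPM in HPC against 4.86 ± 2.48 CPM in LPC (edgeR with the block, adjusted p = 0.028). Epha2 fell 3.97-fold (edgeR with the block, adjusted p = 0.037) from counts of only 5 to 54 reads a library. Without the block the edgeR adjusted p of Epha4, Ephb2, Ptk7 and Epha2 was 0.47, 0.11, 0.37 and 0.30. Erbb2, the partner of Erbb3, had a log2 fold change of -0.50 that missed the threshold (edgeR adjusted p = 0.48, with the block 0.075), and Egfr had no read in any library. Over all 32 tested receptor tyrosine kinases, 24 had negative log2 fold changes and the median was -0.24, against 51.8% negative among all genes.

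**Figure D4:**
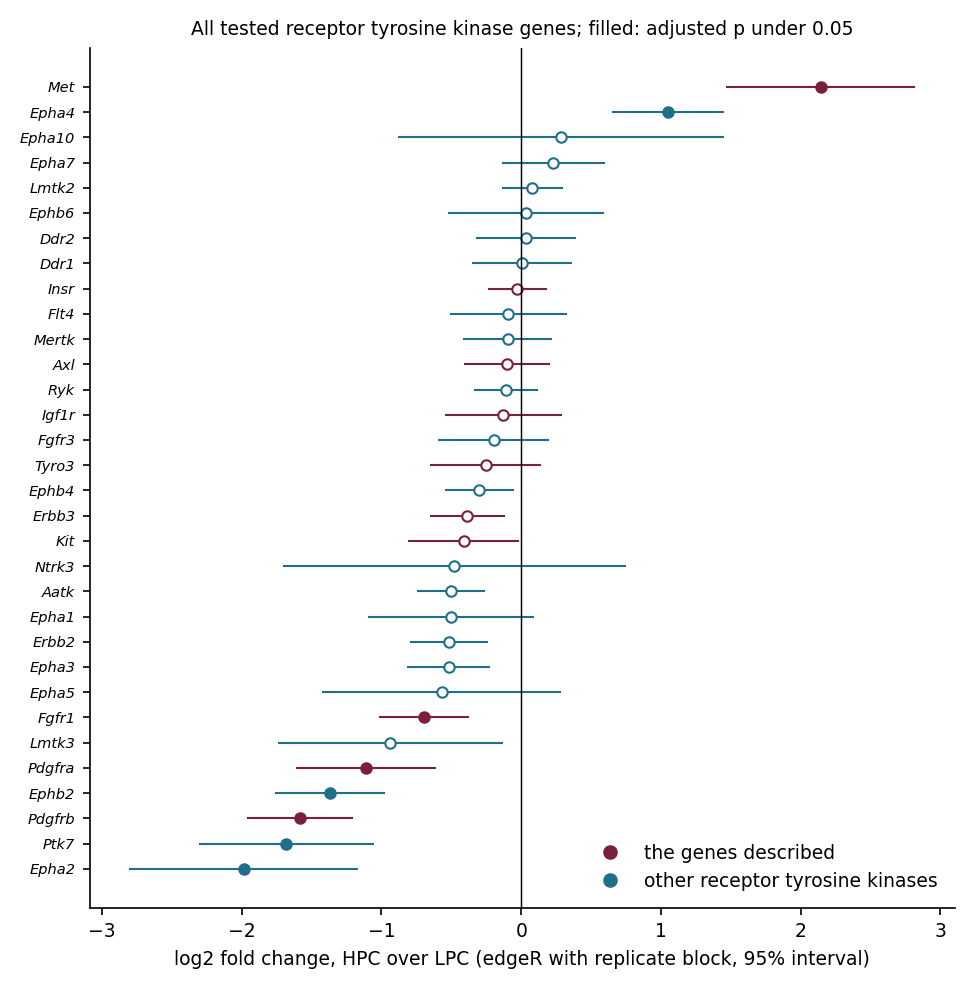
Log2 fold change of HPC over LPC with 95% intervals for the 32 tested receptor tyrosine kinase genes, from edgeR with the replicate block, filled where the adjusted p is under 0.05. Met and Epha4 are the filled points to the right of 0, and Fgfr1, Pdgfra, Ephb2, Pdgfrb, Ptk7 and Epha2 those to the left.

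Ligands of these receptors were mostly at or near 0 in the sorted cells. Of 19 ligand genes 7 were tested, and edgeR, DESeq2 and limma-voom called 0 of them, with or without the block. Those fits called 0.0419% to 4.19% of all genes. In edgeR, 1 of the 7 had an unadjusted p under 0.05 unblocked and 3 blocked, against 9.37% and 18.8% of all genes. The median log2 fold change of the 7 was 0.017. Hgf, Nrg1 and Igf1, which encode a ligand each of Met, Erbb3 and Igf1r but not every listed ligand of Erbb3 and Igf1r, had no read in any of the 6 libraries. There, 3 reads, the limit that a count of 0 allows, correspond to 0.14 to 0.20 CPM before scaling. A 3' end missing from the annotation would also give 0. Kitl, the ligand of Kit, was at 1.68 ± 0.15 CPM in HPC against 1.098 ± 0.34 CPM in LPC (SD, n = 3 each, edgeR adjusted p = 0.65). Ligands of the platelet-derived growth factor receptors had the smallest p of the list. Pdgfd was at 0.71 ± 0.24 and 1.57 ± 0.45 CPM in HPC and LPC (edgeR adjusted p = 0.43), and Pdgfa was at 8.01 ± 1.17 and 11.4 ± 3.12 CPM (0.58).

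Among 15 tested co-receptor, ligand-binding and ligand-activating genes, the unblocked edgeR fit called 0 and the blocked fit 0. Of all genes these fits called 0.0419% and 2.52%. In edgeR, 1 of the 15 had an unadjusted p under 0.05 unblocked and 5 blocked, against 9.37% and 18.8% of all genes. DESeq2 with the block called Igfbp4, against 4.19% of all genes, and without it called 0, against 1.88%. Limma-voom called 0 with and without the block, against 2.5% and 0.0419%. The median log2 fold change of the 15 was -0.14. Igfbp4, which binds insulin-like growth factors, was at 227 ± 32.9 CPM in HPC against 311 ± 27.4 CPM in LPC (edgeR adjusted p = 0.33, with the block 0.057). Nrp2, a neuropilin co-receptor, was at 426 ± 82.0 and 528 ± 64.2 CPM (edgeR adjusted p = 0.62). Adaptors and proximal effectors, such as Grb2, Gab1 and the RAS and RAF genes, gave a log2 fold change of 0.030 as the median of 34 tested genes. No adaptor was called by edgeR, DESeq2 or limma-voom with or without the block, against 0.0419% to 4.19% of all genes. In edgeR, 2 of the 34 had an unadjusted p under 0.05 unblocked and 6 blocked, against 9.37% and 18.8% of all genes. Pik3cb, a PI3-kinase catalytic subunit, was at 37.2 ± 5.16 and 28.2 ± 3.16 CPM in HPC and LPC, and Plcg2, a phospholipase C, at 15.4 ± 3.64 and 10.2 ± 2.65 CPM (edgeR adjusted p = 0.47 and 0.53).

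Of 26 tested attenuators of receptor signalling, such as Cbl, Sprouty and Spred genes, the unblocked edgeR fit called 0 and limma-voom 0. Each of these fits called 0.0419% of all genes. In the unblocked edgeR fit 1 had an unadjusted p under 0.05, against 9.37% of all genes. DESeq2 called 1 and the blocked edgeR fit 1, against 1.88% and 2.52% of all genes. DESeq2 with the block called 2, against 4.19% of all genes. These were Lrig1 as lower and Ptpn6, a tyrosine phosphatase gene, as higher in HPC (DESeq2 log2 fold change 0.55, adjusted p = 0.034, against 0.090 in the blocked edgeR fit). Limma-voom with the block called 1, Lrig1, against 2.5% of all genes. The list's median log2 fold change was 0.030. Lrig1, a membrane protein that promotes breakdown of Met and ErbB receptors, was at 1.12, 0.81 and 0.61 CPM in the HPC libraries, against 2.63, 3.54 and 3.01 CPM in the LPC libraries. The groups did not overlap, at 12 to 67 reads a library. Lrig1 fell 3.64-fold in HPC with the block (edgeR log2 fold change -1.87, SE 0.31, adjusted p = 0.031, against 0.14 without it), and DESeq2 called it without the block (adjusted p = 0.0027).

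The genes most like Met over the 6 libraries, by Pearson correlation of log2 CPM among 10214 genes with a mean of at least 5 CPM, were Prob1, Cep120, Arhgap32, Dennd1b and Capn6 (r from 0.990 to 0.995). These values describe 6 libraries in 2 groups and carry no test. Capn6, a calpain family gene, was at 30.9 CPM in HPC against 9.36 CPM in LPC. Those most like Pdgfrb were Fkbp10, Prr24, 3110062M04Rik, Imp3 and Sh3tc2 (r from 0.980 to 0.998). Fkbp10, which encodes a collagen chaperone, was at 17.7 CPM in HPC against 45.8 CPM in LPC.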

How the data were processed

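The deposited table holds raw counts for each gene and 1 column for each of 6 libraries, 3 HPC and 3 LPC. Per the labels' protocols, libraries were QuantSeq 3' mRNA-Seq FWD, read on a NextSeq 500. The submitters' processing notes name STAR and GRCm38. For counter, annotation, strand and molecular identifiers, the sources used here give nothing. Reads lie at transcript ends, so levels were not divided by length.

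Counts were filtered with filterByExpr, scaled by TMM and tested in edgeR 4.0.16 (R 4.3.3) by population alone, with adjustment over 11921 genes. Further fits added a replicate block or used DESeq2 1.42.0 or limma-voom (limma 3.58.1). The edgeR SEs were derived from the F statistic. Nothing says that replicates were separate cultures, so p-values reflect only the spread of these libraries, possibly technical. Deviations from group means correlated at 0.42, 0.35 and 0.65 for the libraries numbered 1, 2 and 3, each above 0.1, so the numbers were taken to pair the libraries. This rests on the counts, since no label states it. No libraries of a group were near-identical (at least 14007 genes differed in count).

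Members and lists were chosen with earlier results of these data known. Named are all 10 members, the called genes of each list (up to 3 with the block, and also Epha2), otherwise the 2 with the smallest p, and the 5 genes most like Met and Pdgfrb. Hgf, Nrg1, Igf1, Egfr, Erbb2, Kitl, Mertk, Mitf, Notch3, Ptpn6, Epha3 and Aatk were named after their values were seen. Coordinates are from GENCODE M21. The fits were also run on simulated counts, whose residual spread in the blocked case was set below the unblocked estimate. That run does not give the rate of false calls in these data.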

Additional observations from a re-analysis of the deposited data

How the results depend on the processing

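Without the replicate block edgeR called 5 genes in all, 0 of the 10 receptors and 0 of the other pathway genes. With the replicate block it called 301, 4 and 5, DESeq2 called 224, 2 and 2, DESeq2 with the replicate block 500, 4 and 9, and limma-voom with the replicate block, added after seeing the data, 298, 4 and 5. With no filter edgeR called 28 genes and, among the receptors, 1. Leaving out single libraries gave 0 to 43 genes, 0 to 1 receptors and 0 to 1 pathway genes. The replicate block gave 2947, 5 and 28 calls without the pair numbered 1, 0, 0 and 0 without that numbered 2, and 196, 2 and 3 without that numbered 3, each with 1 residual degree of freedom. Leaving out 1 library turned the sign of small differences in Axl (-0.57 to 0.32), Tyro3 (-0.50 to 0.060) and Insr (-0.11 to 0.063), and the replicate block without the pair numbered 1 turned Igf1r (0.063) and Insr (0.031). The lowest and highest values came without HPC replicate 3 and LPC replicate 3 for Axl and without HPC replicates 3 and 1 for Tyro3 and Insr. With all 6 libraries, the replicate block changed no call among the 10 receptors other than those of Met, Pdgfrb, Pdgfra and Fgfr1. Without the pair numbered 1 the blocked edgeR fit also called Erbb3. RLE, upper quartile and library-size scaling and limma-voom, all without the block, called 0 receptors. They called only 4, 6, 5 and 5 genes in all. Low counts limit Pdgfrb and Pdgfra most.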
